A study of Mus musculus with 54 samples.

Results

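M1-like mock macrophages were compared with M0 mock macrophages in 6 of the 54 libraries of a mouse macrophage study. The 6 libraries, chosen by their labels (M1_mock 1 to 3 and M0_mock 1 to 3), belonged to a paired-end reprogramming experiment of 36 libraries in 12 groups of 3. All cells were thioglycolate-elicited peritoneal macrophages of C57BL/6 mice, for which the methods give an age range of 8 to 20 weeks for the whole study. Thioglycolate is an irritant that recruits macrophages into the peritoneal cavity, and the cells that adhered to the plate after lavage were used. M1-like cells had been cultured for 24 h with 100 ng/ml lipopolysaccharide (LPS) and 50 ng/ml interferon gamma (IFNγ), whereas M0 cells received neither. Both groups were then treated with the transfection reagent DharmaFECT 4 and no siRNA, which is the mock treatment, and RNA was sequenced 48 h after this step. Neither the labels nor the methods state whether LPS and IFNγ remained in the medium during those 48 h. The methods speak of 3 biological replicates for each state, in their account of the RNA for quantitative PCR, but the labels of these libraries record no animal. The p-values below therefore measure the spread between 3 numbered samples per group, which may be technical in part. The comparison addresses what distinguishes M1-like from M0 macrophages when both have been through the transfection procedure.

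LPS is sensed by Toll-like receptor 4, which activates NF-κB and interferon regulatory factors and induces cytokines, chemokines and interferon beta. IFNγ signals through its receptor to gamma-activated sites (GAS) and induces IRF1, guanylate-binding proteins (GBPs), immunity-related GTPases and the genes of antigen presentation. Interferon beta acts on the interferon-stimulated response element (ISRE) of antiviral genes. Classically activated mouse macrophages are known for nitric oxide production, antigen presentation and a glycolytic metabolism.

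The 6 libraries held 15077403 to 19704195 counted reads each. The macrophage markers were high in both groups, with a summed level of 6938 to 7954 CPM in M1-like mock and 14034 to 16721 CPM in M0 mock libraries, and 8 of the 10 markers were lower and 2 (Itgam and Cd14) higher in M1-like mock cells. CPM is the count scaled to the library's total after adjustment by the trimmed mean of M values (TMM), and compares 1 gene between samples, not genes with each other. Transcripts of other cells were low but not equal in the groups. The 9 fibroblast and mesothelial markers summed to 22.3 to 44.2 CPM in M1-like mock and 199.9 to 317 CPM in M0 mock libraries, and 8 of the 8 tested were lower. B cell markers summed to 5.87 to 21.3 against 27.9 to 90.0 CPM, and all 6 tested were lower. T and NK cell markers reached 7.3 CPM in M0 mock replicate 2 and stayed at or below 0.38 CPM in M1-like mock libraries, with Ncr1 at 0 in all 6 libraries. Neutrophil markers summed to 80.5 to 93.7 against 117 to 131 CPM, with S100a9, Ly6g and Retnlg at 0. Most of this sum was Csf3r (66.1, 56.7 and 61.3 against 97.9, 103 and 95.9 CPM). Of the 4 tested, Csf3r and Cxcr2 were lower and S100a8 higher. Eosinophil markers summed to 0.883 to 1.36 against 9.47 to 12.8 CPM with Ear6 at 0, mainly from Siglecf, the only 1 tested. Mast cell markers summed to 0.174 to 0.491 against 3.22 to 3.59 CPM with Ms4a2 at 0, and dendritic cell markers to 3.93 to 7.06 against 3.26 to 4.46 CPM. Markers of large resident peritoneal macrophages summed to 38.2 to 43.5 against 67.7 to 88.6 CPM, but did not fall as a class. Of the 8 tested, 2 (Gata6 and Cd5l) were lower and 1 (Icam2) higher. In bulk RNA, fewer cells of a type and less RNA per cell cannot be told apart, and the part of these cells in the results below was not tested. M0 mock replicate 3 stood apart from the other M0 mock libraries in inflammatory and interferon genes (Ccl5, Socs3, Lcn2 and Irf7 below), so values without this library are given beside those that it moved by more than 1.5 times or whose call was lost without it.

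Promoters of interferon-responsive genes are shown here because the groups of genes they belong to behaved differently in the comparison. Windows from 250 bases before to 50 bases after the RefSeq gene start (GRCm38.p6) were searched on both strands for the letters GAAANNGAAA (ISRE core), TTCNNNGAA (GAS core) and GGGANNNNCC (κB core), and matches are in capitals. The following 4 windows belong to Gbp2b and Tgtp2, which are among the 15 largest increases, to Gbp2, and to Ifit3, an antiviral gene that was lower in M1-like mock cells.
Gbp2b, chr3:142594597-142594896, plus strand: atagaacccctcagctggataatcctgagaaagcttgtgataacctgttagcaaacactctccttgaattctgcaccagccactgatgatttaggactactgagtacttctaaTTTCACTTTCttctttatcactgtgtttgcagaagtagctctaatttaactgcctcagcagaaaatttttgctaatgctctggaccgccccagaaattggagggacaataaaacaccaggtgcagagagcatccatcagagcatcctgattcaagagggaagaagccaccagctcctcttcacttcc
Gbp2, chr3:142620413-142620712, plus strand: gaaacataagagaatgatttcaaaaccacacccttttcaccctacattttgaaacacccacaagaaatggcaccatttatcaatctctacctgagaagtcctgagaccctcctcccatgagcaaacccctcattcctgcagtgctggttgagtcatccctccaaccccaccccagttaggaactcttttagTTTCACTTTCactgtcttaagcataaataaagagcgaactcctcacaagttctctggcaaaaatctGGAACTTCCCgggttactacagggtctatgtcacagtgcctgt
Tgtp2, chr11:49064163-49064462, minus strand: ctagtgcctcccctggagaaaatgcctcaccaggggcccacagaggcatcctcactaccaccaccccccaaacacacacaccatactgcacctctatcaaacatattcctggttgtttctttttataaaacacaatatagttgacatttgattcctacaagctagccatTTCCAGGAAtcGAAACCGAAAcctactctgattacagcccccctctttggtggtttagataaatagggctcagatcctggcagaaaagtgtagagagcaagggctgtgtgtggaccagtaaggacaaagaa
Ifit3, chr19:34583279-34583578, plus strand: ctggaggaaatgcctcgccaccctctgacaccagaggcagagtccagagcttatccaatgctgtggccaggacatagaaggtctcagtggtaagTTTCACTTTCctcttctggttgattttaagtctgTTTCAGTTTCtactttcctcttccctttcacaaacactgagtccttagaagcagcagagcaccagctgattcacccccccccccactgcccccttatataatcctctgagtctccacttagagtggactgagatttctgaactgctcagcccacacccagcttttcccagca
The ISRE core began 137 bases before the start in Gbp2b, 59 bases in Gbp2 and 70 bases in Tgtp2, where a GAS core began 81 bases before the start without overlapping it. Ifit3 held 2 ISRE cores, at 156 and 122 bases before the start, and the capitals near the start of Gbp2 mark a κB core. This κB core and the ISRE cores of Gbp2b, Gbp2 and Ifit3 lay on the strand opposite to that printed. Of the 15 largest increases 8 had a window, and 3 of these 8 windows held an ISRE core, 3 a GAS core and 1 a κB core, compared with 3.44%, 8.3% and 20.7% of all 32851 windows in the table. In the list of GBPs and immunity-related GTPases 10 of 11 windows held an ISRE core and 6 a GAS core, and in the list of interferon-stimulated antiviral genes 12 of 27 windows held an ISRE core and 7 a GAS core. Both lists thus carried the ISRE letters, although their members moved differently (below). Many of these genes are related copies with similar promoters, and a match of letters is a description, not a site of binding.

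Of 14172 genes tested with edgeR's quasi-likelihood test, 4299 (30.3%) were higher and 4257 (30.0%) lower in M1-like mock than in M0 mock macrophages at an adjusted p under 0.05. The median log2 fold change over all genes was 0.02. A change of at least 1 on the log2 scale was found for 1073 of the higher and 1803 of the lower genes, and the 3 libraries of each group did not overlap for 8747 genes (61.7%). These shares are the background for the member counts below. Among the called genes 81 were at least 4 log2 units higher and 213 at least 4 log2 units lower.

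**Figure D1:**
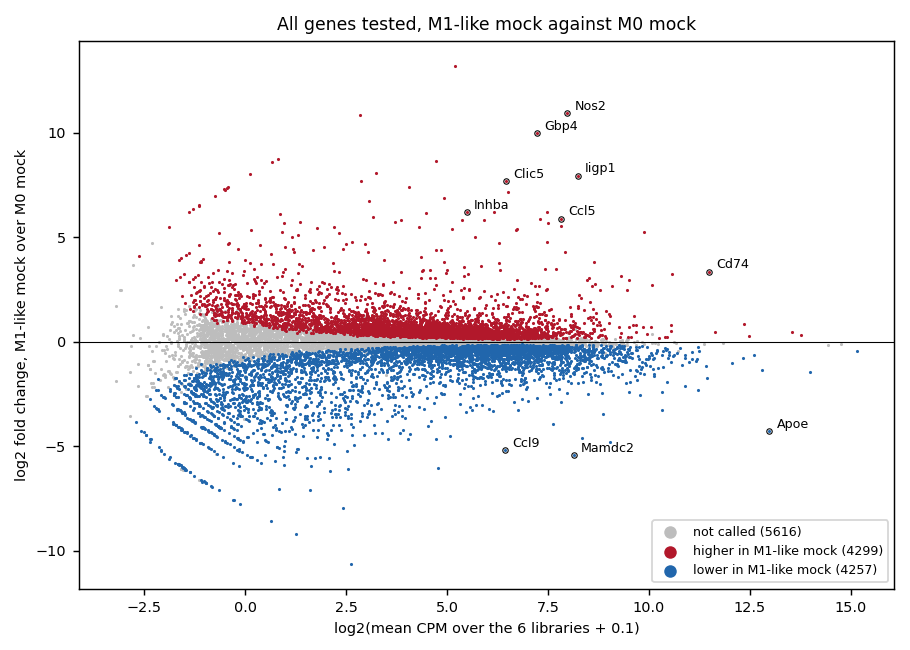
Log2 fold change of M1-like mock over M0 mock (vertical axis) against the level as log2 of the mean CPM over the 6 libraries plus 0.1 (horizontal axis) for the 14172 genes tested; red points were higher (4299), blue points lower (4257) and grey points not called. Labelled genes include Nos2 at 10.93, Gbp4 at 9.97 and Cd74 above 0, and Apoe at -4.29 below 0.

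Nos2, Gbp4 and Iigp1 had the largest increases among protein-coding genes. The 15 largest were taken among genes that passed the test, had a mean of the 6 log2 CPM values of at least 2 and did not overlap between the groups. Nos2, the inducible nitric oxide synthase (chromosome 11, 78920787 to 78960254, plus strand, GRCm38), was at 524, 560.1 and 421 CPM in the 3 M1-like mock libraries and at 0.0701, 0 and 0.718 CPM in the 3 M0 mock libraries. The M0 mock values rest on 12 reads in all, 11 of them in replicate 3. The groups were far apart, but the size of the change is therefore imprecise. The log2 fold change was 10.93 ± 0.29 (SE, edgeR adjusted p = 3.5e-23). It was 13.68 without M0 mock replicate 3 and 10.25 without M0 mock replicate 2. Both shifts exceed the SE, which was derived from the test statistic. Gbp4, a guanylate-binding protein (chromosome 5, 105115767 to 105139586), was at 235, 377 and 286 against 0.14, 0.322 and 0.392 CPM (log2 fold change 9.97 ± 0.30, SE, adjusted p = 6e-23). Iigp1, an immunity-related GTPase that attacks the vacuoles of intracellular parasites, was at 504, 674 and 627 against 1.33, 1.83 and 4.31 CPM (log2 fold change 7.92 ± 0.29, SE, adjusted p = 1.6e-20). For each of these genes the lowest M1-like mock library was more than 100 CPM above the highest M0 mock library.

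Of the remaining 12 genes of the 15 largest increases, 4 were further GTPases of these families. Tgtp1 (log2 fold change 7.18), Gbp8 (6.89), Tgtp2 (6.21) and Gbp2b (5.66) ranged from 60.2 ± 2.28 to 357 ± 66.1 CPM (mean ± SD, n = 3) in M1-like mock cells. The counting mode for reads shared between near-identical copies is not given in the sources used here, so single members of the pairs Tgtp1 and Tgtp2, Gbp2 and Gbp2b, H2-Q6 and H2-Q7, and Ifit3 and Ifit3b are uncertain, and the annotated spans of Gbp4, Gbp8 and Gbp9 overlap on 1 strand. Ccl5, a chemokine for T cells and monocytes, was at 467, 353 and 505 against 1.75, 2.2 and 19.1 CPM (log2 fold change 5.87 ± 0.53, SE, adjusted p = 3.8e-11). The highest M0 mock value came from replicate 3, without which the log2 fold change of Ccl5 was 7.78. Inhba, the activin A subunit, was at 119, 79.1 and 68 against 0.981, 1.02 and 1.63 CPM, and Hcar2, a receptor for nicotinic acid and beta-hydroxybutyrate, at 31.7, 61.3 and 38.1 against 0.561, 0.645 and 0.588 CPM. The other 5 were Clic5 (log2 fold change 7.67), Ly6a (6.21), which encodes the surface antigen Sca-1, H2-Q6 (5.89), a non-classical class I heavy chain, the serpin Serpina3g (5.81) and AA467197 (5.81). The log2 fold change without M0 mock replicate 3 was 8.54 for Iigp1, 7.84 for Tgtp1, 7.91 for Gbp8 and 6.90 for Tgtp2. Some genes with no read in any M0 mock library lay below that mean and were looked up after their values were seen. Serpina3f, a serpin, was at 54.2, 91.7 and 73.1 CPM and Gbp11 at 10.98, 17.0 and 14.8 CPM in M1-like mock libraries.

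**Figure D2:**
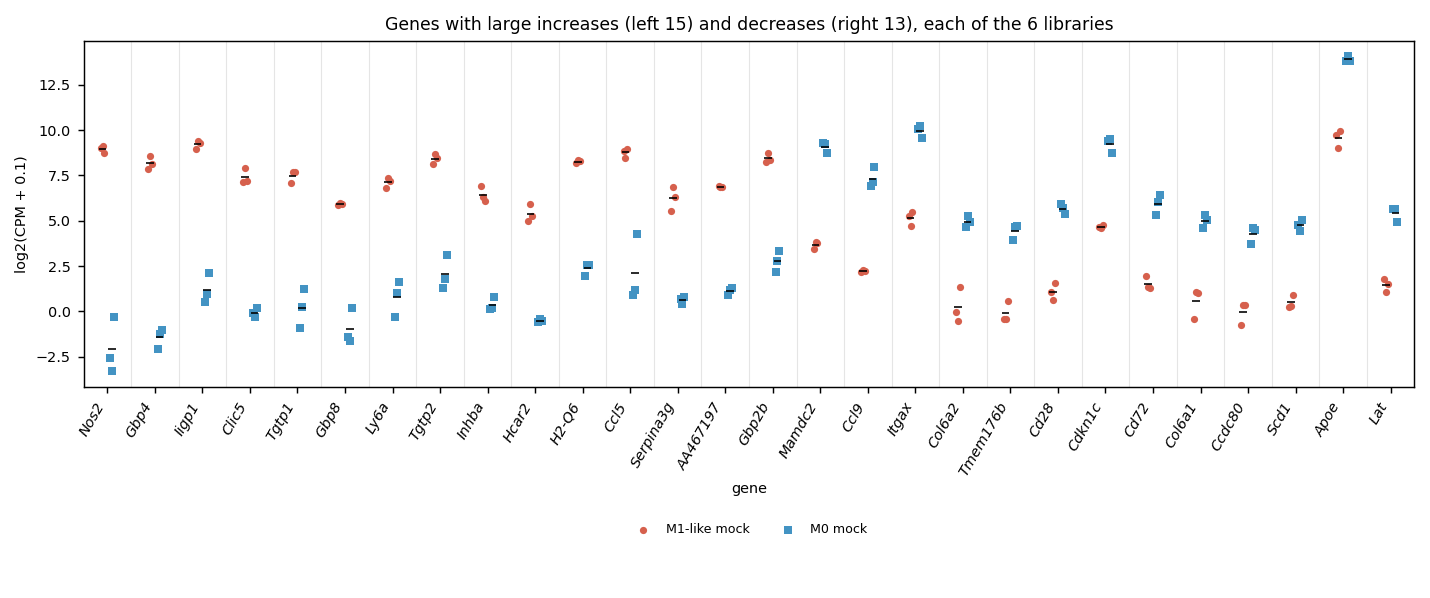
Level of the 15 genes with the largest increases (left) and of 13 of the 15 with the largest decreases (right) in each M1-like mock (red circles) and M0 mock (blue squares) library as log2(CPM + 0.1); black bars are means of 3 libraries. The groups do not overlap for any of the 28 genes, a condition of the selection, and the M0 mock spread is widest for Nos2 and Ccl5.

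All tested GBPs and immunity-related GTPases were higher in M1-like mock cells: 14 of 14 rose (background 30.3%), with a median log2 fold change of 4.75, and the smallest change was 1.61. Gbp5, Gbp6 and Gbp10 of this list were not analysed here. Gbp2 was at 1382, 2251 and 1897 against 34.8, 42.8 and 70 CPM (log2 fold change 5.23 ± 0.25, SE, adjusted p = 8.7e-18). Genes of MHC class I presentation rose as a group, 18 of 18, by a smaller amount (median 1.17). Within this list the heavy chain H2-K1 was at 1032, 1058 and 1231 against 408, 436 and 558 CPM (log2 fold change 1.24 ± 0.11, SE, adjusted p = 2.8e-11). B2m, the light chain of class I molecules, was at 6577, 6392 and 7114 against 3216, 3489 and 4652 CPM (log2 fold change 0.82 ± 0.12, SE, adjusted p = 3.2e-07). Tap1, a subunit of the peptide transporter, was at 663 ± 28.1 against 104 ± 25.2 CPM (log2 fold change 2.67 ± 0.13, SE, adjusted p = 1.3e-17), although its span overlaps Psmb9 on the opposite strand and the strand mode of counting is not given in the sources used here. The largest increases of the list were those of H2-Q6 and H2-Q7 (5.39), for which no M0 mock library exceeded 7.25 CPM.

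All 10 tested genes of MHC class II presentation rose, with a median log2 fold change of 2.87 and a range of 0.47 to 3.46. Ciita, the master transactivator of class II genes, was at 131, 165 and 141 against 13.9, 13.9 and 12.5 CPM (log2 fold change 3.44 ± 0.14, SE, adjusted p = 1.8e-19). Cd74, the invariant chain, was at 5222, 4423 and 6025 against 515, 522 and 495 CPM (log2 fold change 3.35 ± 0.13, SE, adjusted p = 7.4e-20). H2-Ab1 was at 2679, 2616 and 2969 against 285, 329 and 272 CPM (log2 fold change 3.22 ± 0.12, SE, adjusted p = 2.9e-20), and H2-Aa changed by 2.95. The M0 mock libraries differed little from each other for these genes, with H2-Aa at 166, 165 and 166 CPM. B cells also carry class II molecules. The 6 tested B cell markers were lower in M1-like mock cells, and their part in the class II values was not tested.

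Interferon-stimulated antiviral genes behaved differently. Of 29 members tested, 6 rose and 16 fell in M1-like mock cells (background 30.3% and 30.0%), with a median log2 fold change of -0.42. Without M0 mock replicate 3 the counts were 8 higher and 11 lower. The largest increases were modest: Rsad2, the antiviral enzyme viperin, was at 399, 379 and 346 against 114, 166 and 207 CPM (log2 fold change 1.20 ± 0.19, SE, adjusted p = 2.6e-06), and Samhd1, a dNTPase, rose by 1.24, Zbp1, a nucleic acid sensor, by 1.15 (1.87 without M0 mock replicate 3) and Herc6 by 1.08. Among the largest decreases were those of Ifit3b, at 1.36, 1.77 and 2.55 against 7.57, 12.3 and 22.8 CPM (log2 fold change -2.92 ± 0.41, SE, adjusted p = 3.9e-07), of Oas2, an oligoadenylate synthetase, at 23.8, 29.3 and 27.2 against 63.5, 93.3 and 109 CPM (log2 fold change -1.73 ± 0.19, SE, adjusted p = 3.2e-09), and of Cmpk2 (-1.57). Ifit1 was at 31.4, 35.7 and 36.6 against 29.8, 39.8 and 86.7 CPM, so that the groups overlapped, and its log2 fold change of -0.59 (adjusted p = 0.041) became -0.02 (adjusted p = 0.957) without M0 mock replicate 3. The call of Ifit1 was also lost without any 1 of the M1-like mock libraries (-0.53 to -0.63) and with DESeq2 (-0.62, adjusted p = 0.0705). For Ifit2, at 329, 357 and 355 against 105, 185 and 388 CPM, and Isg15, at 35.2, 34.9 and 38.9 against 22.7, 37.3 and 85.4 CPM, the difference was not called (log2 fold changes 0.62 and -0.42, adjusted p = 0.076 and 0.23). Without M0 mock replicate 3 they were 1.25 (adjusted p = 0.000445) and 0.26 (adjusted p = 0.429), and without M0 mock replicate 1 Isg15 was called lower (-0.75, adjusted p = 0.0266). The spread among M0 mock libraries was several times that among M1-like mock libraries for Ifit1, Ifit2 and Isg15. For Samhd1 it was smaller (SD 41.0 CPM in M0 mock and 89.2 CPM in M1-like mock).

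The same contrast in untransfected cells of the experiment (3 M1-like and 3 M0 libraries) gave another picture for the antiviral genes, and the difference between both contrasts was tested directly. All 29 tested members had a smaller M1-like over M0 difference in mock than in untransfected cells (background 5.85% lower and 3.22% higher, 829 and 457 of 14172 genes), with a median difference of -2.26 on the log2 scale. Ifit2 was at 275, 339.8 and 295 CPM in untransfected M1-like and at 8.34, 2.85 and 4.43 CPM in untransfected M0 cells, a log2 fold change of 5.89 that exceeded the mock value by 5.27 (difference -5.27 ± 0.50, SE, adjusted p = 1.3e-08, and -4.63 without M0 mock replicate 3). Irf7, the transcription factor that amplifies type I interferon, was at 348, 399 and 378 against 149.5, 328 and 598 CPM in mock cells (log2 fold change 0.063 ± 0.31, SE, adjusted p = 0.87) and at 344, 387 and 357 against 62.7, 23.6 and 20.4 CPM in untransfected cells (difference -3.29 ± 0.45, SE, adjusted p = 6.4e-06, and -3.98 without untransfected M0 replicate 1). The M1-like levels were thus close with and without reagent, while the M0 levels were not. M0 mock was compared with untransfected M0 for this reason, with the M0 mock libraries shared with the comparison above. All 29 antiviral genes were higher in M0 mock (background 11.7% higher and 8.66% lower, 1663 and 1228 genes), by 4.03 for Ifit1 and 3.29 for Isg15. Between M1-like mock and untransfected M1-like cells edgeR called 0 of 14172 genes, with 438 at an unadjusted p under 0.05, and DESeq2 also called 0, with 411 at an unadjusted p under 0.05. The methods place the profiles of cells without transfection at 24 h after polarization and those of the reprogramming study at 48 h after transfection, and do not say which time applies to the untransfected libraries of this experiment. The reagent and a difference in culture time cannot be told apart.

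**Figure D3:**
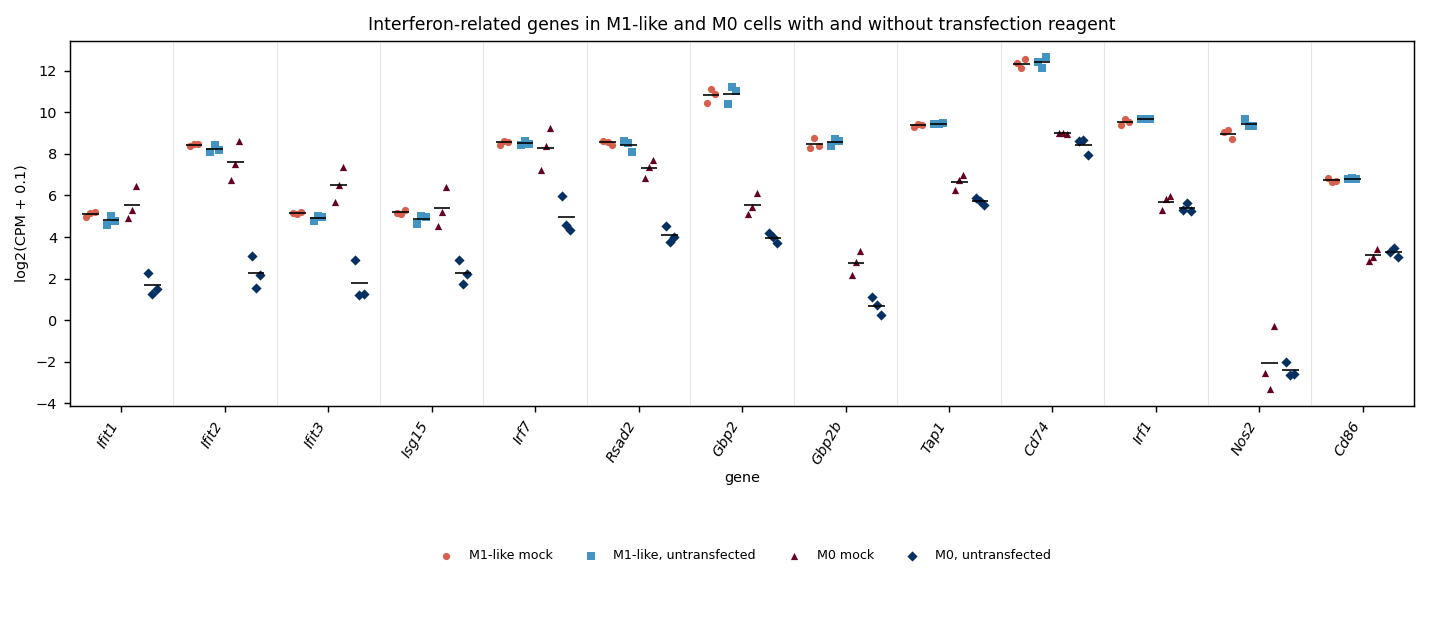
Level of 13 interferon-related genes as log2(CPM + 0.1) in M1-like mock (red circles), untransfected M1-like (light blue squares), M0 mock (dark red triangles) and untransfected M0 (dark blue diamonds) libraries; black bars are means of 3 libraries. For Ifit1, Ifit2, Ifit3, Isg15 and Irf7 the M0 mock libraries lie beside the M1-like libraries and the untransfected M0 libraries lie below, whereas Nos2, Irf1 and Cd86 are low in both kinds of M0 cells.

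Further genes with the largest difference between both contrasts belonged to the same family of responses. Ifi44 (-5.96 ± 0.99, SE, adjusted p = 9.7e-05), Ifit3 (-4.49 ± 0.52, SE, adjusted p = 4.4e-07), Ifi213 (-4.32 ± 0.55, SE, adjusted p = 2e-06), Ifi206 (-4.30 ± 0.65, SE, adjusted p = 2.4e-05) and Ifit3b (-4.19 ± 0.98, SE, adjusted p = 0.0047) had, with Ifit2, the 6 largest differences below 0. Without M0 mock replicate 3 the difference was -4.99 for Ifi44 and -3.47 for Ifi206, and without untransfected M0 replicate 1 it was -7.54 for Ifi44, -5.26 for Ifit3 and -5.04 for Ifi206, each still called. Ifi206 was nevertheless higher in M1-like mock cells, at 83.2, 69.1 and 84.8 against 4.63, 10.6 and 26.6 CPM (log2 fold change 2.50 ± 0.30, SE, adjusted p = 2e-08, and 3.33 without M0 mock replicate 3), whereas Ifi44 and Ifi213 were not called (0.66 and -0.18, adjusted p = 0.099 and 0.57). Without M0 mock replicate 3 Ifi44 was called (1.62, adjusted p = 0.000108) and Ifi213 was at 0.38 (adjusted p = 0.20). All 6 genes with the largest differences above 0 had their highest mean in untransfected M0 cells, although for F5 the means of both M1-like groups (24.7 ± 4.95 CPM in mock and 24.4 ± 2.69 CPM in untransfected cells) lay within the spread of that in untransfected M0 cells (25.1 ± 5.83 CPM). Marco, a scavenger receptor, was at 15, 13.3 and 12.1 against 1.26, 2.31 and 5.68 CPM in mock cells (log2 fold change 2.13 ± 0.58, SE, adjusted p = 0.0021) and at 23.4, 15.8 and 18 against 65.2, 70.7 and 38.5 CPM in untransfected cells, so that its direction differed (difference 3.73 ± 0.73, SE, adjusted p = 0.00069). Without M0 mock replicate 3 the log2 fold change of Marco in mock cells was 2.87 and the difference 4.47. Pf4, a platelet-type chemokine, rose in mock cells (0.85) and had a log2 fold change of -1.35 in untransfected cells, and F5, coagulation factor V, rose by 1.61 against -0.046. S100a4 was lower in both (-1.75 and -4.03). Prg4, a marker of large peritoneal macrophages whose span overlaps the abundant gene Tpr on the opposite strand, was at 10.9, 10.8 and 10.6 against 4.63, 4.67 and 4.25 CPM in mock cells and was not called although the groups did not overlap (log2 fold change 1.25, adjusted p = 0.12, and 1.23 with adjusted p = 1.7e-05 in a model of the 6 libraries alone), and Fabp7, whose groups overlapped, was not called either (0.29, adjusted p = 0.14).

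Among the other lists with IFNγ targets, 11 of 14 GBPs and immunity-related GTPases had a smaller difference in mock cells (background 5.85%, median -1.58). The same held for 13 of 18 MHC class I genes (median -0.635) and 4 of 10 class II genes (median -0.406). These genes were higher in M1-like than in M0 cells in both contrasts: Gbp2 by 5.23 in mock and 6.94 in untransfected cells, and Cd74 by 3.35 and 3.95. The difference of Cd74 (-0.60 ± 0.17, SE, adjusted p = 0.023) was not called in a model of the 12 libraries of both contrasts alone (-0.61, adjusted p = 0.168), nor were those of H2-Ab1, H2-Aa and H2-K1 (adjusted p = 0.0779, 0.106 and 0.0653).

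Cytokine transcripts were higher for 13 and lower for 2 of 21 members tested (median log2 fold change 0.70), and Il12a, Il23a, Csf2 and Csf3 did not pass the filter on low counts. With at least 10 counts required in each of the 6 libraries, 8 members were called higher and 1 lower. In untransfected cells the list median was 2.05. The difference between both contrasts was below 0 for 8 and above 0 for 0 of the 21 members (background 5.85% and 3.22%). In M0 mock, 10 members were higher and 0 lower than in untransfected M0 (background 11.7% and 8.66%). In the mock comparison, cytokines well known from LPS-treated macrophages were at low levels or changed by little. Il1b, at 0.771 ± 0.654 against 0.11 ± 0.135 CPM, and Il12b, the p40 subunit of interleukin 12, at 0.539 ± 0.405 against 0.0234 ± 0.0405 CPM (SD, n = 3), rose (log2 fold changes 2.83 and 4.22, edgeR adjusted p = 0.011 and 0.0021) from levels of a few reads per library. Tnf, chosen for description after its values were seen, was at 23.3, 38.3 and 31.9 against 20.4, 17.7 and 22.3 CPM (log2 fold change 0.64 ± 0.18, SE, adjusted p = 0.0033). Il1a was at 32.7, 35.8 and 27.6 against 28.8, 18.6 and 26.1 CPM with overlapping groups (log2 fold change 0.40 ± 0.17, SE, adjusted p = 0.048), and the call was lost without M1-like mock replicate 1 or 2 or M0 mock replicate 2 or 3 (0.22 to 0.45) and with DESeq2 (0.36, adjusted p = 0.0655). Il6 was at 0.435, 0.54 and 0.696 CPM in M1-like mock cells and at 0.14, 0.0537 and 0 CPM in M0 mock cells, the latter from 3 reads in all. After Inhba, the largest increase of the list was that of Il18bp, the soluble inhibitor of interleukin 18, at 390.4, 268 and 363 against 7.08, 7.79 and 22.8 CPM (log2 fold change 4.77 ± 0.29, SE, adjusted p = 2.1e-15, and 5.51 without M0 mock replicate 3). Il10, an anti-inflammatory cytokine, fell from 0.841, 0.967 and 1.89 to 0.163, 0.442 and 0.174 CPM (log2 fold change -2.18 ± 0.51, SE, adjusted p = 0.00046, and -2.81 without M1-like mock replicate 2), levels of few reads.

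Chemokines rose and fell within both families (background 30.3% higher and 30.0% lower). Of 11 CC chemokines 4 rose and 4 fell (median 1.02), and of 11 CXC chemokines 3 rose and 6 fell (median -0.93), the latter 3 with at least 10 counts in each library. The medians in untransfected cells were 0.70 and -0.34. In M0 mock, 6 CC chemokines were higher and 0 lower than in untransfected M0, and 5 CXC chemokines higher and 2 lower (background 11.7% and 8.66%). The values that follow are from mock cells unless stated. Ccl2, which recruits monocytes, was at 58.3, 67.6 and 78.1 against 10.1, 13.4 and 24.2 CPM (log2 fold change 2.09 ± 0.27, SE, adjusted p = 4.7e-08). Cxcl9, an IFNγ-induced ligand of CXCR3, was at 58.6, 50.6 and 48.8 CPM in M1-like mock cells and at 0, 0.215 and 0.131 CPM in M0 mock cells, where 6 reads were counted in all (log2 fold change 8.64 ± 0.40, SE, adjusted p = 2.7e-18, and 9.45 without M0 mock replicate 2). Cxcl10, another CXCR3 ligand, was at 1.69, 8.99 and 4.18 against 1.54, 3.12 and 3.98 CPM, with overlapping groups and no call (log2 fold change 0.78 ± 0.54, SE, adjusted p = 0.22, and 0.00 without M1-like mock replicate 2). In untransfected cells its log2 fold change was 4.84, with M0 at 0.22, 0.186 and 0.136 CPM. The difference between both contrasts was -4.05 ± 1.19 (SE, edgeR adjusted p = 0.027), and this call was lost under several alternatives. Cxcl13, a B cell attractant, and Cxcl12, a chemokine made by stromal cells, were at 0.129 ± 0.0692 and 0.257 ± 0.271 CPM against 6.29 ± 3.32 and 6.44 ± 1.98 CPM (SD, n = 3), the largest decreases of the CXC list (-5.58 and -4.56). Fibroblast markers moved in the same direction, as given above. Cxcl16, a membrane-bound chemokine and scavenger receptor, rose (1.73). Ccl9, at 4.4, 4.71 and 4.59 against 120.5, 138 and 247 CPM (log2 fold change -5.20 ± 0.26, SE, adjusted p = 1.4e-17), and Ccl6, at 95.2, 51.7 and 86.1 against 575, 534 and 1431 CPM (log2 fold change -3.45 ± 0.25, SE, adjusted p = 2.8e-13, and -2.84 without M0 mock replicate 3), had the largest decreases of the CC list, and Ccl3 fell by 1.23 on the log2 scale.

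**Figure D4:**
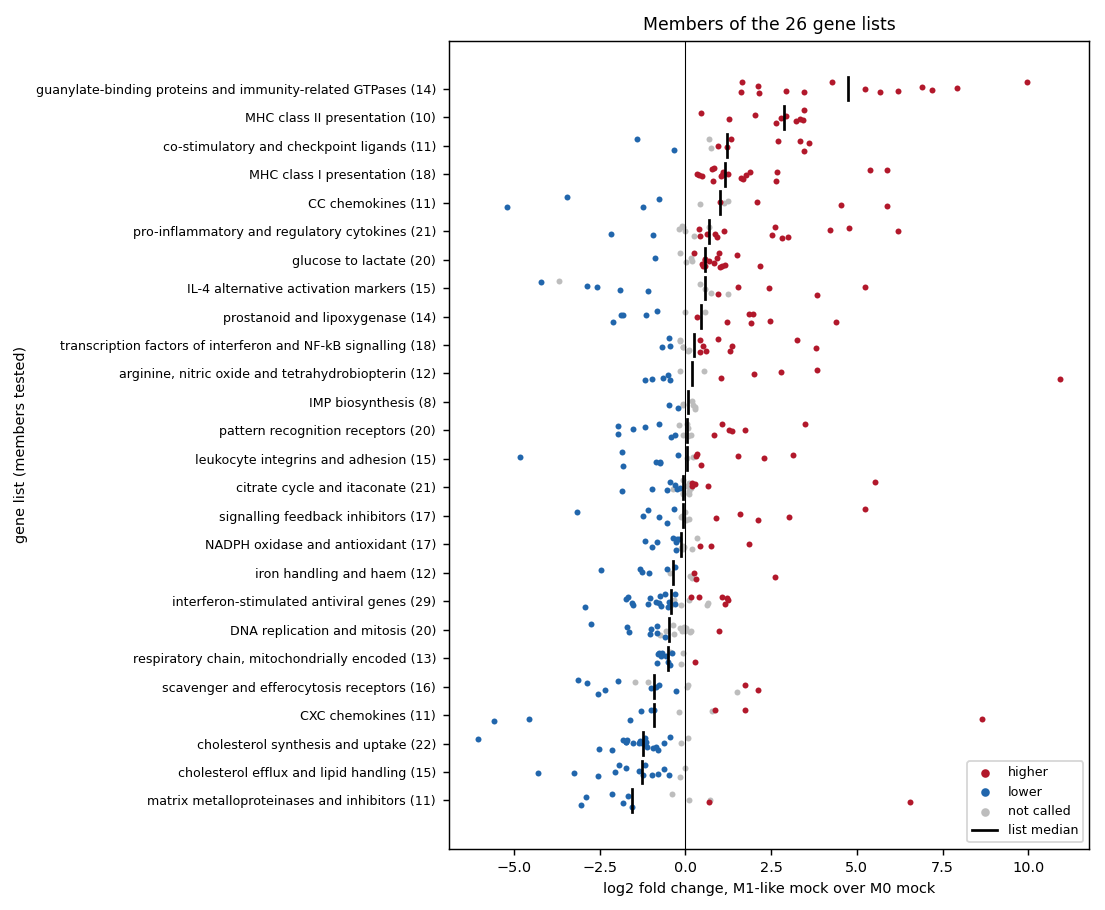
Log2 fold change of M1-like mock over M0 mock for each tested member of the 26 gene lists (1 point per gene, red higher, blue lower, grey not called), with the list median as a black bar and lists ordered by it. The GBP list has the highest median (4.75) and matrix metalloproteinases the lowest (-1.55).

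Of 18 transcription factors of interferon and NF-κB signalling 9 rose and 3 fell (median 0.26). Irf1 was at 679, 815 and 737 against 40, 56.6 and 61.8 CPM (log2 fold change 3.81 ± 0.13, SE, adjusted p = 2.4e-21), the largest change of the list. Irf8, a factor of the myeloid lineage, rose by 1.31 on the log2 scale. Irf7 was unlike them, as described above. Among 17 feedback inhibitors 5 rose and 6 fell (median -0.079). Socs1, which restrains interferon receptor signalling, was at 26.3, 55.9 and 44.9 against 3.64, 7.04 and 4.64 CPM (log2 fold change 3.03 ± 0.27, SE, adjusted p = 1.9e-11). Socs3, which restrains cytokine receptors that use gp130, was at 116, 184 and 142 against 9.11, 10.6 and 83 CPM (log2 fold change 2.11 ± 0.40, SE, adjusted p = 4e-05), and its log2 fold change was 3.90 without M0 mock replicate 3, whose value was several times that of the other M0 mock libraries. Its difference from the untransfected contrast (-2.19 ± 0.60, SE, adjusted p = 0.018) became -0.41 (adjusted p = 0.488) without that library. Dusp2, a MAP kinase phosphatase, fell by 3.15 and Zfp36, which destabilizes cytokine mRNAs, by 1.23 on the log2 scale.

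Of 20 pattern recognition receptors 6 were higher and 7 lower (median 0.048), near the background of 30.3% and 30.0%. Clec4e, the receptor Mincle, was at 354, 308 and 283 against 20.3, 18.4 and 45.5 CPM (log2 fold change 3.50 ± 0.26, SE, adjusted p = 5.3e-13), whereas Clec7a, the beta-glucan receptor Dectin-1, was at 292, 272 and 289 against 1190.3, 1105 and 1027 CPM (log2 fold change -1.96 ± 0.079, SE, adjusted p = 1.1e-19). Of 11 co-stimulatory and checkpoint ligands 7 rose and 2 fell (median 1.20), the latter 1 without M1-like mock replicate 1 or 2 or M0 mock replicate 2 or 3 and in a model of the 6 libraries alone. Cd86, a ligand of CD28, was at 114, 100.4 and 104 against 7.22, 8.22 and 10.6 CPM (log2 fold change 3.61 ± 0.13, SE, adjusted p = 3.8e-21), and Cd40 rose from 5.34 ± 2.66 to 58.2 ± 5.06 CPM (log2 fold change 3.45 ± 0.21, SE, adjusted p = 2.7e-15). Cd274, which encodes PD-L1, was at 1924, 1938 and 1711 against 262, 267 and 327 CPM (log2 fold change 2.70 ± 0.083, SE, adjusted p = 1.2e-22), and its difference from the untransfected contrast was -1.42 ± 0.11, SE, adjusted p = 4.1e-10. The groups did not overlap for any of these surface molecules.

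In arginine, nitric oxide and tetrahydrobiopterin metabolism 5 of 12 genes rose and 5 fell (median 0.20), the former 3 with at least 10 counts in each library. Beside Nos2, Arg1, the arginase that competes for the same substrate, was at 63, 76.5 and 29.1 against 3.64, 3.12 and 5.23 CPM (log2 fold change 3.83 ± 0.85, SE, adjusted p = 0.00026). In untransfected cells the log2 fold change of Arg1 was 1.12 ± 0.66 (SE), with M0 at 72.2, 28.7 and 13.8 CPM. Arg1 was lower in M0 mock than in untransfected M0 (-3.26, edgeR adjusted p = 0.0062). The difference between both contrasts was not called (2.71 ± 1.09, SE, adjusted p = 0.12). The arginine transporter Slc7a2 was at 122, 122 and 103 against 30.8, 26.1 and 29.7 CPM (log2 fold change 2.01 ± 0.18, SE, adjusted p = 3.5e-11). Qdpr, which regenerates tetrahydrobiopterin, fell by 1.18 on the log2 scale. Both arginine-consuming enzymes were therefore higher in M1-like mock cells.

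Of 21 citrate cycle and itaconate genes 5 rose and 7 fell (median -0.057), with 3 higher when no filter was applied or in a model of the 6 libraries alone. Acod1, which makes itaconate from aconitate, was at 411, 481 and 438 against 3.29, 4.84 and 20.8 CPM (log2 fold change 5.53 ± 0.40, SE, adjusted p = 2.6e-13, and 6.74 without M0 mock replicate 3). Idh1, the cytosolic isocitrate dehydrogenase, was at 97.1, 83.1 and 88.7 against 359, 294 and 318 CPM (log2 fold change -1.85 ± 0.082, SE, adjusted p = 9.8e-19), and Ogdh fell by 0.98 on the log2 scale. The path from glucose to lactate had 15 higher and 1 lower member of 20 (median 0.58). Slc16a3, the lactate exporter MCT4, was at 189.7, 224 and 210.4 against 41.6, 47.5 and 48 CPM (log2 fold change 2.19 ± 0.11, SE, adjusted p = 1.2e-17), Hk2, a hexokinase, at 286, 277 and 245 against 101, 93 and 93.5 CPM (log2 fold change 1.49 ± 0.067, SE, adjusted p = 1.5e-18), and Pgk1 rose by 1.06. Aldoc was the 1 member that fell, and DESeq2 called 2 members lower. Synthesis of inosine monophosphate had 0 higher and 2 lower genes of 8 (median 0.07), with 1 higher gene when M1-like mock replicate 2 or M0 mock replicate 1 or 2 was left out and 1 lower gene without M1-like mock replicate 1 or M0 mock replicate 2 or in a model of the 6 libraries alone. Of the 13 mitochondrially encoded respiratory chain genes 1 rose and 9 fell (median -0.52), with mt-Cytb at 565, 764 and 881 against 1523, 1233 and 1117 CPM. The share of counted reads on all mitochondrially encoded genes, without TMM scaling, overlapped between the groups. It was 1.49, 1.33 and 1.69% in M1-like mock and 1.63, 1.27 and 1.45% in M0 mock libraries. The 1 increase, that of mt-Co1 (log2 fold change 0.27, adjusted p = 0.038), was not called with DESeq2, with the size factors of DESeq2 in edgeR, in a model of the 6 libraries alone, with at least 10 counts in each library, without M1-like mock replicate 1 or 3, or without M0 mock replicate 2 or 3.

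Genes of cholesterol synthesis and uptake were lower: 20 of 22 fell and 0 rose (background 30.0% and 30.3%), with a median log2 fold change of -1.22. Cyp51, a sterol demethylase of this pathway, fell by 2.14 on the log2 scale. Cholesterol efflux and lipid handling had 13 lower and 0 higher of 15 members (median -1.25). Apoe, the apolipoprotein that carries cholesterol out of macrophages, was at 844, 527 and 992 against 14219.7, 17222 and 14760.5 CPM (log2 fold change -4.29 ± 0.21, SE, adjusted p = 1.7e-17). Lpl, lipoprotein lipase, was at 228, 275 and 220.1 against 2372, 2351 and 2192 CPM (log2 fold change -3.26 ± 0.14, SE, adjusted p = 8.2e-19), and the fatty acid receptor Cd36 at 259.6, 255 and 255 against 1444, 1509 and 1524 CPM (log2 fold change -2.54 ± 0.13, SE, adjusted p = 7.9e-17). Abca1, the cholesterol exporter, fell in mock cells (-1.34) and differed in untransfected cells, where the log2 fold change was 0.38 (difference -1.72 ± 0.23, SE, adjusted p = 5.1e-06).

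The other genes with the largest decreases had varied functions. Itgax, the integrin alpha chain CD11c, was at 38.4, 26.1 and 44.7 against 1085, 1210.5 and 765 CPM (log2 fold change -4.81 ± 0.19, SE, adjusted p = 6.9e-20). Cdkn1c, the cell cycle inhibitor p57, was at 24.7, 24.3 and 27.6 against 685, 741 and 427 CPM (log2 fold change -4.60 ± 0.21, SE, adjusted p = 2.1e-18) and at 132, 73.8 and 69.7 CPM in untransfected M0 cells (difference -2.67 ± 0.27, SE, adjusted p = 4e-08). Scd1, which desaturates fatty acids, fell by 4.35 on the log2 scale in mock and had a log2 fold change of -1.62 in untransfected cells (difference -2.73 ± 0.50, SE, adjusted p = 0.00033). Mamdc2 was at 10.8, 14 and 13.6 against 637, 595 and 426 CPM (log2 fold change -5.43 ± 0.15, SE, adjusted p = 2.3e-23). Cd28 and Lat, which act in antigen receptor signalling of lymphocytes, fell by 4.63 and 4.03, and Cd72, a B cell co-receptor, fell by 4.51 on the log2 scale. Cd28 was high in each M0 mock library (59.9, 52.2 and 40.8 CPM). The 6 tested B cell markers were lower in M1-like mock cells, whereas of 4 tested T and NK cell markers only Cd4 was called lower and their reads lay mainly in M0 mock replicate 2. The part of these cells was not tested. Cd72 overlaps Tesk1 and Tmem176b overlaps Tmem176a on the opposite strand. Col6a1, Col6a2 and Ccdc80, genes of the extracellular matrix, fell by 4.40, 4.64 (5.43 without M1-like mock replicate 3) and 4.38, and Tmem176b by 4.64 on the log2 scale. Col6a1 was at 0.652, 2.01 and 1.92 against 24.4, 39.4 and 33.4 CPM. Slco2b1, an organic anion transporter, and Eln, which encodes elastin, had no read in M1-like mock libraries and were at 11.004, 17.7 and 7.45 CPM and at 3.43, 5.37 and 4.83 CPM in M0 mock libraries, again looked up after their values were seen. The fibroblast marker Col1a1 was at 6.14, 10.8 and 10.8 against 71.8, 115 and 79.9 CPM in the same libraries, and the part of such cells was not tested.

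Of 16 scavenger and efferocytosis receptors 2 rose and 9 fell (median -0.92). Gas6, the bridging ligand of the Mer receptor, fell from 85.1 ± 22.9 to 9.66 ± 0.922 CPM (log2 fold change -3.14 ± 0.15, SE, adjusted p = 7.6e-18), and Stab1 fell by 2.35 on the log2 scale. Mrc1, the mannose receptor, was at 29.8, 19.2 and 22.9 against 167, 152 and 211 CPM (log2 fold change -2.88 ± 0.15, SE, adjusted p = 1.2e-16). Of 15 markers of alternative activation by interleukin 4, 5 rose and 5 fell (median 0.57), near the background of 30.3% and 30.0%. With at least 10 counts required in each library, 3 were lower. In untransfected cells the median of this list was -0.96. Tgm2, a transglutaminase, was at 698, 771 and 777 against 126, 132 and 153 CPM (log2 fold change 2.45 ± 0.12, SE, adjusted p = 7.9e-18) and Arg1 was higher, whereas Mrc1 and Egr2 (20.2, 21.5 and 23.2 against 147, 152 and 92 CPM) were lower. Chil3 rose in mock cells (0.94) and had a log2 fold change of -0.89 in untransfected cells (difference 1.84 ± 0.37, SE, adjusted p = 0.00091).

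Iron handling genes had 3 higher and 6 lower of 12 members (median -0.37). Slc40a1, the iron exporter ferroportin, was at 1.2, 1.37 and 1.39 against 7.64, 8.11 and 5.94 CPM (log2 fold change -2.45 ± 0.27, SE, adjusted p = 3.7e-09). Lcn2, which binds bacterial iron carriers, was at 7.12, 7.76 and 9.69 against 0, 0.269 and 3.79 CPM, and its log2 fold change of 2.61 became 5.69 without M0 mock replicate 3. Prostanoid and lipoxygenase genes had 7 higher and 5 lower of 14 (median 0.46). Their median in untransfected cells was -0.62, and the difference between both contrasts was above 0 for 4 and below 0 for 1. In mock cells Ptgs2, the inducible cyclooxygenase, was at 66.7, 53.7 and 44.3 against 2.45, 2.31 and 3.14 CPM (log2 fold change 4.38 ± 0.29, SE, edgeR adjusted p = 1.5e-14). Pla2g7, which hydrolyses platelet-activating factor, was higher by 2.48. Of 11 matrix metalloproteinases and inhibitors 2 rose (1 with at least 10 counts in each library) and 6 fell (median -1.55), with Mmp25 at 0.705 ± 0.203 CPM in M1-like mock cells and at 0 in all 3 M0 mock libraries, and the macrophage elastase Mmp12 was at 765, 633 and 708 against 3290.5, 3057 and 2857 CPM (log2 fold change -2.13 ± 0.10, SE, adjusted p = 1.4e-17).

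Leukocyte integrins and adhesion molecules had 6 higher and 7 lower of 15 members (median 0.047). Itgb7, an integrin beta chain, was at 1017, 1173 and 1212 against 92.4, 140.1 and 154 CPM (log2 fold change 3.14 ± 0.13, SE, adjusted p = 3.1e-19) in contrast to Itgax. Itgal, the alpha chain of LFA-1, rose in mock cells (1.55) and had a log2 fold change of -0.10 in untransfected cells (difference 1.65 ± 0.16, SE, adjusted p = 2.6e-08), and Icam1, its ligand, rose by 2.28. NADPH oxidase and antioxidant genes had 3 higher and 8 lower of 17 (median -0.14, and 5 lower without M1-like mock replicate 2), with Sod2, the mitochondrial superoxide dismutase, at 187, 311 and 244 against 61.4, 58.7 and 85.2 CPM (log2 fold change 1.86 ± 0.17, SE, adjusted p = 7e-11). DNA replication and mitosis genes had 1 higher and 8 lower of 20 (median -0.46), and the higher count was 0 without M1-like mock replicate 1 or 3 and 2 without M0 mock replicate 3. It was also 0 in a model of the 6 libraries alone and with at least 10 counts in each library.

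The transcription factors that the study silenced in M2-like cells were not targeted in these libraries. Myc was at 3.37, 2.8 and 4.35 against 25, 23.8 and 16.6 CPM (log2 fold change -2.64 ± 0.17, SE, adjusted p = 2.1e-14) and Pparg at 23.1, 19.4 and 22.9 against 96, 95.6 and 79.7 CPM (log2 fold change -2.05 ± 0.088, SE, adjusted p = 4.1e-19), so both were lower in M1-like mock cells. For E2f1, at 32.5, 28.7 and 25 against 25.8, 27.5 and 25.7 CPM, and Stat6, at 277, 297 and 282 against 307, 296 and 282 CPM, no difference was called (0.12 ± 0.10 and -0.05 ± 0.091, SE, adjusted p = 0.3 and 0.66).

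A separate single-end experiment on 3 mice measured M1-like and M0 cells after 24 h of LPS and IFNγ, without transfection. Its libraries were not fitted with those above, so that its values are set beside the mock values and the difference was not tested. At 24 h 5703 of 16110 genes (35.4%) were higher and 6048 (37.5%) lower. Of the genes higher in mock cells 2389 were also higher at 24 h, which is 55.6% of the mock list and 41.9% of the 24 h list, and 899 (20.9% of the mock list) were lower. Of the genes lower in mock cells 2436 were lower at 24 h, 57.2% of the mock list and 40.3% of the 24 h list, and 761 (17.9%) were higher.

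The list medians at 24 h were further from 0 for the inflammatory lists. The cytokine median was 5.43 at 24 h and 0.70 in mock cells, that of CXC chemokines 4.78 and -0.93, and that of antiviral genes 4.83 and -0.42. In untransfected cells of the paired-end experiment these 3 medians were 2.05, -0.34 and 1.70. All 29 antiviral genes were higher at 24 h. At 24 h Tnf had a log2 fold change of 6.32 and Cxcl10 of 12.91, and Il6 was at 30.9 CPM in M1-like and 0.0133 CPM in M0 cells. The GBP list (7.21 and 4.75) and the class II list (4.10 and 2.87) were high at both times. Cholesterol synthesis (-1.21 and -1.22) and lipid handling (-1.13 and -1.25) were low at both times, although Apoe was at -0.63 at 24 h and -4.29 in mock cells, and Abca1 was higher at 24 h (2.92). Glycolytic genes had a median of 2.71 at 24 h and 0.58 in mock cells. Itgb7 had the smaller value at 24 h (0.45, against 3.14 in mock cells).

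**Figure D5:**
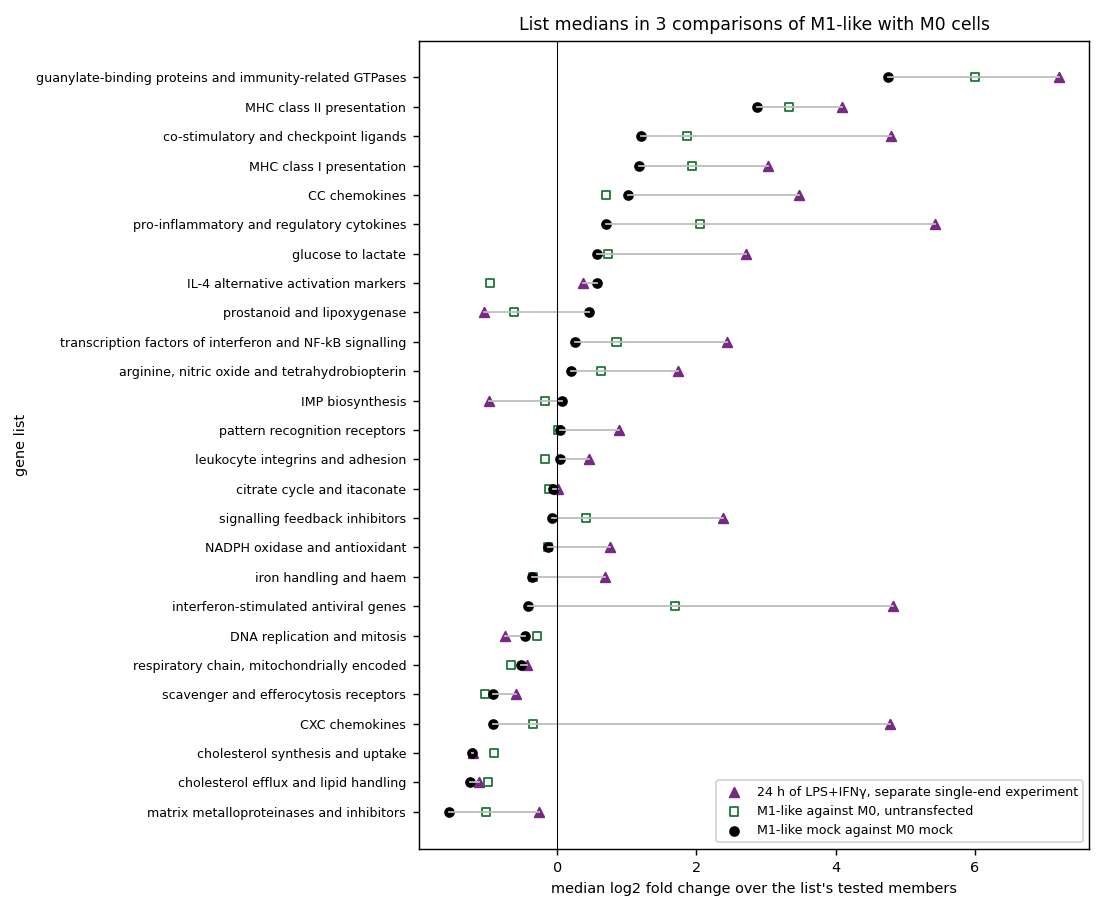
Median log2 fold change of M1-like over M0 cells over the tested members of each of the 26 gene lists, for mock cells (black circles), untransfected cells of the same experiment (open green squares) and the separate 24 h experiment (purple triangles). The median of the antiviral genes is -0.42 in mock cells, 1.70 in untransfected cells and 4.83 at 24 h, while that of cholesterol synthesis stays between -1.22 and -0.90.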

How the data were processed

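Thioglycolate-elicited peritoneal macrophages were sequenced by the authors, who trimmed reads with Trimmomatic, aligned them with TopHat2 to GRCm38 (mm10) and counted reads per gene with featureCounts. The deposited values are whole-number counts per gene and library. The annotation release, strand mode and treatment of shared reads are not given in the sources used here.

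Counts of 39179 genes in the 36 paired-end libraries (12 groups of 3) were fitted together with edgeR 4.0.16 in R 4.3.3. Genes passed filterByExpr (minimum count 10, minimum total count 15), which left 14172, and libraries were scaled by TMM. Contrasts were tested with the quasi-likelihood test (two-sided) and Benjamini-Hochberg adjustment over all genes tested, with a threshold of 0.05. The SE given with a log2 fold change is its absolute value divided by the square root of the test's F statistic. For genes with few reads in a group this SE can be too small. Leaving out 1 library moved the log2 fold change of Nos2 from 10.93 to 13.68. The contrasts were M1-like mock against M0 mock, the same contrast in untransfected cells, the difference of both, and mock against untransfected cells of each state. In the single-end experiment the 2 technical replicates of each of 3 mice and conditions were summed and fitted separately. All groups came from the labels, and no library was left out of the main model. DESeq2 1.42.0, other size factors, other filters, a smaller model, a replicate block and leaving out each library were tried as alternatives.

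The libraries held 15077403 to 19704195 counted reads. No interval for counting error is given, since values are compared over replicates. On simulated counts for the mock comparison with 200 changed genes, edgeR recovered 198 and called 15 of 13665 unchanged genes. The changed genes were drawn among well-counted genes, and the other genes had the same mean level in all groups. The simulation therefore does not cover genes with few reads, a library that deviates from its group or changes in most genes.

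Named genes were the 15 largest increases and 15 largest decreases among protein-coding genes with an adjusted p under 0.05, groups that did not overlap and a mean of the log2 CPM values not below 2; in each gene list the members with the largest changes and the first entries; the 6 largest differences in each direction between mock and untransfected contrasts; and the siRNA targets. Some genes that this rule names are not reported here. The comparison, the 26 gene lists and the markers were chosen with earlier results of these data known. Gene coordinates and symbols came from GENCODE vM21 (GRCm38), which gave 37693 of 39179 genes a symbol, and promoter sequences from RefSeq (GRCm38.p6).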

Additional observations from a re-analysis of the deposited data

Results flagged for a closer look

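What marked these results for a closer look was a tested difference between mock and untransfected cells in the M1-like against M0 contrast. It is the log2 fold change in mock cells minus that in untransfected cells, from edgeR at an adjusted p under 0.05. Over all genes it was above 0 for 457 and below 0 for 829 of 14172 genes. Among antiviral and other interferon-stimulated genes the difference was -5.96 for Ifi44, -5.27 for Ifit2, -4.49 for Ifit3, -4.32 for Ifi213, -4.30 for Ifi206, -4.19 for Ifit3b, -3.72 for Ifit1, -3.11 for Rsad2, -2.97 for Isg15, -2.80 for Zbp1, -2.65 for Cmpk2, -2.26 for Oas2, -1.39 for Herc6 and -0.46 for Samhd1. Among interferon signalling genes and their inhibitors it was -3.29 for Irf7, -2.53 for Socs1 and -2.19 for Socs3. For GTPases and antigen presentation it was -2.40 for Tgtp2, -2.28 for Gbp2b, -1.92 for Iigp1, -1.71 for Gbp2, -1.05 for Tap1, -0.77 for B2m, -0.58 for H2-K1, -0.67 for H2-Aa, -0.61 for H2-Ab1, -0.60 for Cd74 and -1.42 for Cd274. For cytokines and chemokines it was -4.05 for Cxcl10, -2.09 for Il18bp, -1.81 for Inhba, -1.77 for Il1a, -1.53 for Ccl2, -1.45 for Tnf, -1.31 for Ccl6, -1.01 for Cxcl16 and -0.94 for Ccl3. Values below 0 for genes that were lower in M1-like mock cells were -2.73 for Scd1, -2.67 for Cdkn1c, -1.99 for Col6a2, -1.92 for Lat, -1.90 for Col6a1 and -1.72 for Abca1. Values for the remaining genes of lipid, glucose and prostanoid metabolism and of pattern recognition were 0.83 for Lpl, -0.51 for Hk2, -2.18 for Ptgs2 and -0.81 for Clec7a. The other values above 0 were 3.73 for Marco, 3.07 for Prg4, 2.27 for S100a4, 2.21 for Pf4, 2.21 for Fabp7, 1.84 for Chil3, 1.66 for F5, 1.65 for Itgal and 0.83 for Itgb7. The methods place cells without transfection at 24 h after polarization and the reprogramming study at 48 h after transfection without saying which time applies to the untransfected libraries here, so the reagent and the time in culture cannot be told apart.

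Of these differences 14 missed the threshold under at least 1 alternative. The call was lost without M0 mock replicate 3 for 8, with a difference of -0.41 for Socs3 (adjusted p = 0.488), -1.30 for Iigp1 (0.234), -1.55 for Inhba (0.109), -0.70 for Ccl6 (0.0598), -1.10 for Ccl2 (0.0791), -3.77 for Cxcl10 (0.061), -0.37 for Samhd1 (0.121) and -0.43 for H2-K1 (0.0668). A model of the 12 libraries of both contrasts alone did not call Socs3, Iigp1, Inhba, Ccl6, Samhd1, H2-K1, H2-Aa, H2-Ab1 or Cd74, with adjusted p between 0.0555 and 0.168. Without untransfected M0 replicate 3 the call was lost for Socs3 (-2.04), Iigp1 (-1.56), Inhba (-1.79), Cxcl10 (-3.89), Samhd1 (-0.42), H2-K1 (-0.50), Cd74 (-0.40), H2-Ab1 (-0.44), H2-Aa (-0.51), Col6a1 (-1.92) and Col6a2 (-1.98). Leaving out untransfected M0 replicate 1 lost Inhba (-1.57), Cxcl10 (-4.19) and Samhd1 (-0.42), and leaving out its replicate 2 lost Iigp1 (-1.89), Cxcl10 (-4.08), Col6a1 (-1.68), Col6a2 (-1.72) and Prg4 (2.71). Among the untransfected M1-like libraries, calls were lost without replicate 1 for H2-Aa (-0.53), Col6a1 (-1.84) and Col6a2 (-1.89), without replicate 2 for Iigp1 (-1.84), Cxcl10 (-3.64) and Samhd1 (-0.37), and without replicate 3 for Iigp1 (-1.84), Cxcl10 (-3.87), Samhd1 (-0.47), Cd74 (-0.47), Col6a1 (-1.64), Col6a2 (-1.96) and Prg4 (2.87). Among the M1-like mock libraries, calls were lost without replicate 1 for Iigp1 (-1.81), Samhd1 (-0.38), Col6a1 (-1.54) and Col6a2 (-1.78), without replicate 2 for Cd74 (-0.49), H2-Aa (-0.54) and Col6a2 (-1.61), and without replicate 3 for Samhd1 (-0.45). The call was lost without M0 mock replicate 2 for Cxcl10 (-3.99), Samhd1 (-0.45), Col6a1 (-1.73), Col6a2 (-1.81) and Prg4 (3.10).

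Differences that kept their call but moved by more than 1.5 times without M0 mock replicate 3 became -4.99 for Ifi44, -4.63 for Ifit2, -3.47 for Ifi206, -2.29 for Isg15, -2.08 for Zbp1, -1.71 for Tgtp2, -1.35 for Il18bp and 4.47 for Marco. Without untransfected M0 replicate 1 they became -7.54 for Ifi44, -5.26 for Ifit3, -5.04 for Ifi206 and -3.98 for Irf7, without M1-like mock replicate 2 -4.83 for Cxcl10, and without M1-like mock replicate 3 -2.78 for Col6a2.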

How the results depend on the processing

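A minimum change of 1 on the log2 scale, in either direction, left 1073 higher and 1803 lower genes in the mock comparison, and 98 higher and 314 lower genes in the difference between mock and untransfected contrasts. With only the libraries of the contrast in the model, that difference was called above 0 for 230 and below 0 for 505 genes, with fewer samples behind the estimate of the spread. Leaving out each library in turn gave 3878 to 4078 higher and 3904 to 4076 lower genes in the mock comparison, 316 to 465 and 636 to 896 in the difference, and 5416 to 5597 and 5554 to 5757 at 24 h. Same-numbered samples did not deviate together in each pair (correlations 0.196, 0.0945 and 0.0449), so the numbers were not taken as pairs. Each M1-like mock library nevertheless correlated best with the M0 mock library of its own number, and over the 12 groups the median correlation was 0.183 for same-numbered and -0.0829 for other pairs, a hint from the data and not from the design. A replicate block gave 4472 higher and 4411 lower genes in the mock comparison, 643 and 1106 in the difference, and 5678 and 6045 at 24 h, where the number names the mouse. With the block Ifit2 (0.70, adjusted p = 0.0212), Ifi44 (0.71, adjusted p = 0.0379) and Prg4 (1.34, adjusted p = 0.00189) were called higher in the mock comparison, 5 transcription factors instead of 3 fell and 2 genes of inosine monophosphate synthesis instead of 0 rose.

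Stability was counted gene by gene for 113 named genes, without Il1b, Il12b, Cxcl12, Cxcl13, Mmp25, Aldoc, mt-Co1, Serpina3f, Gbp11, Slco2b1 and Eln. Of these 113, 104 kept direction and side of the threshold under every alternative run. The 3 that reversed were not called in the main comparison: over the left-out libraries Isg15 lay between -0.75 and 0.26, Irf7 between -0.30 and 0.65 and Ifi213 between -0.52 and 0.38 on the log2 scale, with the end of each range set by M0 mock replicate 1 or 3. The cause was not tested. Of the 56 tested differences, 42 held under every alternative run and 14 missed the threshold under at least 1. Of the 52 list counts, 37 stayed within 1.5 times of the main count and 15 did not under at least 1 alternative. Depth limits genes with few reads, such as Il6, Il10, Il1b and Il12b, whose fold changes are imprecise.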
